A study of Mus musculus with 4 samples.

Results

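ChIP-Seq with an antibody against E2A in livers of wild-type mice gave 4783 merged regions, of which 1117 (23.4%) were called in both replicates, and these 1117 regions are described here. They were chosen by 1 rule: a peak of one replicate had to share at least 1 bp with a peak of the other, and the peaks that met were then merged. Another 2905 regions were called in replicate 1 only and 761 in replicate 2 only. The 2 samples were biological replicates of liver from male C57BL/6 mice on chow diet with the genotype E47+/+, collected at ZT 10 (hours after lights on), and the E2A antibody was the same for both. The labels give the mice as untreated, whereas a description of the study's peak data names Dex-treated livers, and the lists cannot tell these apart. The free-text descriptions of both E2A samples name a GR ChIP, and that of replicate 2 names E47-/- mice. Title, antibody and genotype fields of both samples name E2A and wild type and were followed here.

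E2A is the product of the gene Tcf3, which encodes the basic helix-loop-helix (bHLH) proteins E12 and E47 by alternative splicing. E proteins bind DNA as dimers at the E-box, CANNTG, and Id proteins, which lack the basic region, dimerise with them and keep them off DNA. In lymphoid progenitors E2A activates genes needed for antigen receptor rearrangement, and the liver, whose main cell type is the hepatocyte, was assayed here as whole tissue. A ChIP region in bulk tissue does not tell in which of its cell types the protein was bound.

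Among the genes nearest to the most regions were Irf2bp2, Tex14, Errfi1, Herpud1 and Slc25a25. To show what sequence was called at these genes, 100 bp are printed from the region whose replicate peak centres lay closest together. Coordinates are those of mm10, the bases are from the GRCm38 reference (RefSeq) on the plus strand, and capitals mark E-boxes.

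Irf2bp2, chr8:126609985-126610084: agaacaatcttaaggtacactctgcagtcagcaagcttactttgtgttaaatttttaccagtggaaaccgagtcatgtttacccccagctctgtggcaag
Tex14, chr11:87462377-87462476: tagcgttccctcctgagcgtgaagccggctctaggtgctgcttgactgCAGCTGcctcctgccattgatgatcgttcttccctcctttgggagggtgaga
Errfi1, chr4:150785036-150785135: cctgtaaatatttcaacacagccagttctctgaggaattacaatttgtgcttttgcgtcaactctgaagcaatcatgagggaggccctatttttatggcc
Herpud1, chr8:94386358-94386457: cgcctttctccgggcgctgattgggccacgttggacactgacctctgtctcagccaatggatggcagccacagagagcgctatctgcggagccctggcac
Slc25a25, chr2:32424060-32424159: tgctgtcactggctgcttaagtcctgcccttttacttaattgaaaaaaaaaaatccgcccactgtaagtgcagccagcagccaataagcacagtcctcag

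Of these stretches, 4 had no E-box, and that of Tex14 had 1, with the core CAGCTG. Across all regions the E-box was no more frequent than in the sequence around them, as described further on. The 8-base cAMP response element (CRE), TGACGTCA, to which CREB and ATF proteins bind, had the highest odds ratio of the motifs searched between regions called in both replicates and those called in 1, though not against replicate 2 alone, as given further on. Stretches of 60 bp with a CRE in capitals are shown from genes of the lists described later, all from promoter regions. Hlf encodes a PAR bZIP factor, Mxd1 a bHLH partner of Max, and Trib1 a pseudokinase.

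Hlf, chr11:90390893-90390952: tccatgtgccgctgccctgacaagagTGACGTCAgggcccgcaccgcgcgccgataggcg
Mxd1, chr6:86669491-86669550: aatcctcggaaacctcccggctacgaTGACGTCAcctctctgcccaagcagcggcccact
Trib1, chr15:59648208-59648267: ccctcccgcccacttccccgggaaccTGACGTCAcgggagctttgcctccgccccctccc

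The E-box core CACGTG, bound by bHLH factors such as CLOCK-BMAL1, MYC and USF, was among the E-box cores searched. It is shown in capitals for Per1 and Tef, both output or core genes of the circadian clock, for the transcription factor gene Klf9 and for Insig1, which restrains sterol synthesis. The CRE and CACGTG stretches were picked after the motif values were seen. In them only the named motif is in capitals. Other E-boxes, such as CACCTG at Tef, CAGCTG at Klf9 and CATGTG at Hlf, are in lower case.

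Per1, chr11:69095040-69095099: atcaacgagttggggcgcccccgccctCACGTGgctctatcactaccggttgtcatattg
Tef, chr15:81811249-81811308: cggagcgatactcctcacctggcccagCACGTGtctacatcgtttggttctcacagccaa
Klf9, chr19:23140876-23140935: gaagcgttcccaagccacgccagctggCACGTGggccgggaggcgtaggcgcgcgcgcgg
Insig1, chr5:28071284-28071343: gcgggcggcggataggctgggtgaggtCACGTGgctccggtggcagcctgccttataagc

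The replicate peaks of a region mostly lay on top of each other. Their centres were a median of 62 bp apart (quartiles 27 and 123 bp), and 1021 of 1117 regions (91.4%) had centres within 250 bp. The shared part was a median of 319 bp, or 98.8% of the shorter peak. Regions were a median of 526 bp wide, against 356 bp for replicate 1 only and 318 bp for replicate 2 only. Width is partly set by the rule, because merging can only widen a region. A single peak of each replicate made up 1100 of the regions. The narrowest overlaps that counted were 4 bp at Slc38a2, 5 bp at Slc25a25 and 32 bp at Gusb and Itgb4. Just outside the rule, peaks of the replicates were 2 bp apart at Arrdc3, 4 bp at Mnt and 23 bp at Atf1. The lists hold no read counts, heights or q-values, so the read depth behind a region and the strength of binding are unknown, and the intervals given below are 95% intervals of counting error only. Replicate 1 had 4028 peaks and replicate 2 had 1892.

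With each region assigned to the nearest gene of the deposited annotation, the 1117 regions fell to 989 genes. Of these, 888 had 1 region, 85 had 2, 10 had 3, 4 had 4, Tex14 had 6 and Irf2bp2 had 7. The 101 genes with at least 2 regions held 229 of them (20.5%). Protein-coding genes made up 898 of the 989, long non-coding RNA genes 68 and miRNA genes 16. The nearest gene is a label of position and was not tested as a target.

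Irf2bp2 (ENSMUSG00000051495, chr8:126588296-126593436) encodes a transcriptional corepressor that binds IRF2. All 7 of its regions were intergenic and lay upstream of the transcription start site (TSS), and none was at the promoter. They lay in 3 groups, at -16406 and -20632 bp, at -62888, -66398 and -73085 bp, and at -142317 and -143106 bp (negative is upstream), over a span of 127 kb. Replicate 1 had 8 peaks at this gene and replicate 2 had 7. The region closest to the gene held a CACGTG within the 200 bp at its centre, outside the 100 bp shown above.

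Tex14 (ENSMUSG00000010342, chr11:87427591-87555823) is known for the intercellular bridges of male germ cells. It had 6 peaks in each replicate, and every one of them was shared. A region 357 bp upstream of the TSS was annotated as promoter, 1 lay at -4393 bp in intron 1 of a longer transcript, and 4 lay in intron 2 of the same transcript, from 15411 to 43661 bp downstream. The 6 regions covered 4168 bp over 49.1 kb. These distances are to the deposited TSS, and that of GENCODE lay farther off, as given below.

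Errfi1, an inhibitor of the EGF receptor, had 4 regions. Its distant pair was intergenic, at -97800 and -68643 bp, 1 lay in intron 1 of its own transcript, and 1 was 8679 bp wide and was annotated to the 3′ UTR. A further region of 3492 bp (chr4:150854864-150858355) lay inside the deposited span of Errfi1 (150853919-150868880). The annotation assigned it to the promoter of the non-coding gene 1700045H11Rik, so it is not counted for Errfi1. Herpud1, an endoplasmic reticulum protein induced by unfolded proteins, had 4 regions, at -8423 bp, at the promoter, in intron 1 and at 10453 bp downstream of the TSS. The downstream region held a CRE in its central 200 bp. Slc25a25, a mitochondrial carrier of ATP-Mg and phosphate, had 4 regions within 11.5 kb, from its promoter to just past its end. In 1 of them, in intron 4, the replicate peaks shared only 5 bp.

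Another 10 genes had 3 regions each. Igf1, the main hormone that the liver releases under growth hormone, had all 3 in intron 3, at 24342, 36277 and 45637 bp from the TSS. Tbl1xr1 and Tle3, both of which encode parts of corepressor complexes, had a promoter region each. Tbl1xr1 had a further pair at -140450 and -89357 bp, whereas the other regions of Tle3 lay at -1507 bp and in intron 4. Kdm6b, a demethylase of H3K27, had 1 region at -3331 bp, in intron 1 of a longer Kdm6b transcript, and 2 at -3755 and -4906 bp that the annotation places downstream of a gene. Both of the latter held a CACGTG. Klf3, a Krüppel-like repressor, had regions 49674 bp upstream, at the promoter and in intron 1. Trib1, which promotes the degradation of C/EBPα, had a region at the promoter, in the 3′ UTR and in intron 2. Slc25a47, a mitochondrial carrier of the liver, had regions at the promoter, over exon 2 and downstream within 7.54 kb. Rhobtb1 had 2 promoter regions and 1 in intron 2. The last 2 genes, Neat1, a long non-coding RNA of paraspeckles, and Gm19510, also a long non-coding RNA, had no promoter region. Of all 16 genes with at least 3 regions, 10 had a region at a promoter by the deposited assignment.

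**Figure D1:**
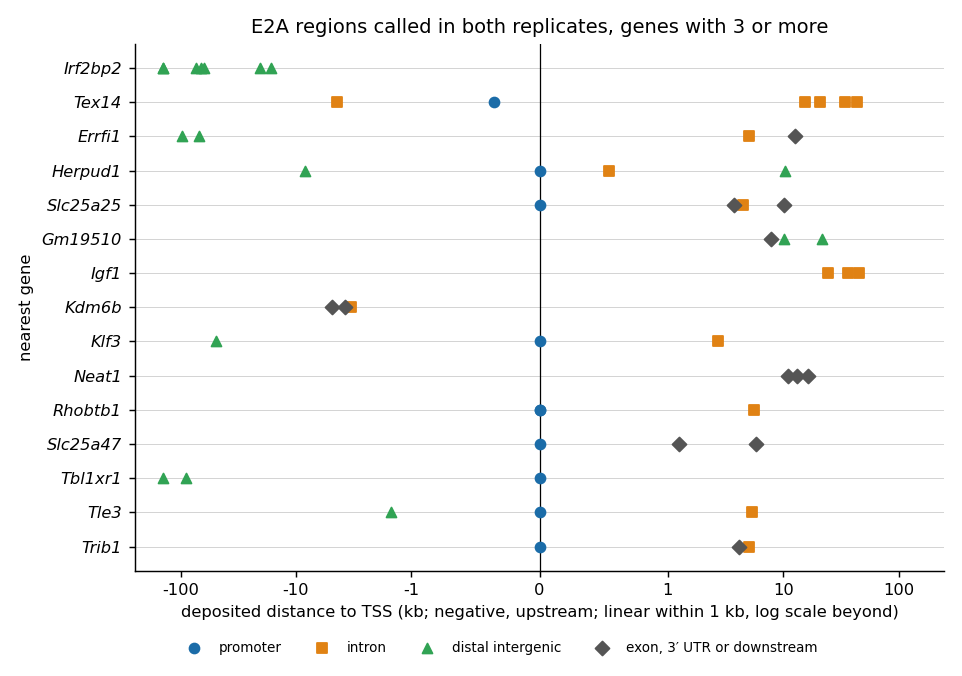
Deposited distance to the TSS in kb (negative is upstream, linear within 1 kb and log scale beyond) of 55 regions of 15 genes with 3 or more regions called in both replicates. Symbols give the gene feature, the 2 farthest regions of Irf2bp2 and the 2 promoter regions of Rhobtb1 fall on each other, and all 7 regions of Irf2bp2 sit on the upstream side whereas those of Igf1 sit in its intron 3.

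The gene to which a region falls depends on the gene models. Taking the nearest protein-coding TSS of GENCODE instead gave the same gene for 894 of 1117 regions (80.0%). Irf2bp2 again had 7 regions and Tex14 6, and Trib1 rose from 3 to 6 because the 3 regions of Gm19510, from 124442 to 138275 bp away, fell to it. Errfi1 rose from 4 to 5 and Klf3 from 3 to 4. Some genes named above, Slc25a25 and Rhobtb1 among them, no longer had 3 regions, whereas Ahsg and Ptges2 each had 3. The 3 regions of Neat1 fell to Frmd8. Measured from the region centres, the regions of Tex14 lay 17948 to 66449 bp from its GENCODE TSS. The region annotated as its promoter in the deposited lists lay 21853 bp from it.

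Of the 85 genes with 2 regions, 46 had at least 1 at a promoter, and the centres of the pair were a median of 8079 bp apart, from 919 bp at Eef1a1 to 145073 bp at Vps13d. Transcription factor genes among them were Foxa2, with a promoter region and 1 at 100843 bp from the TSS, Foxo3, Klf9, Klf13, Nfe2l2, Nfib and Rxra. The Zfp36 family genes Zfp36, Zfp36l1 and Zfp36l2, which encode proteins that destabilise AU-rich mRNA, each had 1 region at the promoter and 1 at 2366, 8985 and 4113 bp from the TSS. Mir122, the most abundant miRNA of the liver, had 2 regions, at 27818 and 22433 bp upstream, and Mir21a had 2, at 2696 bp upstream and 3144 bp downstream. The genes of this paragraph were chosen from the 85 after their values were seen. Cyp2b9 and Cyp2b13, which also had 2 regions each, are close paralogs, so their regions are uncertain.

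Lists of genes with known roles in liver differed in how many of their genes had a region. At the background, 898 of 21896 protein-coding genes (4.1%) were nearest to a region called in both replicates. The list of plasma proteins and apolipoproteins had 20 of 36 genes with such a region (55.6%, 95% Wilson interval 39.6 to 70.5%). Of these, Alb had 2 regions that covered 12275 bp in all, Apoa1 had 2 at 750 and 12685 bp from the TSS, Apoa5 had 2 at 683 and 9083 bp, and Apoe had 1 at the promoter and 1 at 1710 bp. Afp is counted through a region 12161 bp upstream of its TSS, which began inside Alb and covered none of Afp. Cps1, which encodes an enzyme, is also on the list and among the 20. Some genes of the list, such as Alb and Afp, are neighbours, so they are not independent units. Another 8 genes of the list, among them Ttr and Apoa2, had regions, but none called in both replicates. Hepatocyte transcription factors had 12 of 26 (46.2%, 28.8 to 64.5%), with 2 regions each at Foxa2, Klf9, Nr0b2 and Rxra. The regions of Nr0b2, which encodes the corepressor SHP, lay at 3904 and 9729 bp from the TSS, and those of Rxra, a partner of many nuclear receptors, at 51949 and 77142 bp.

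Gluconeogenesis, glucose and insulin genes had 13 of 30 (43.3%, 27.4 to 60.8%). They included 3 regions each at Igf1 and Trib1, 2 at Foxo3, of which 1 was at the promoter, and 2 at G6pc, which encodes the last enzyme of glucose release. Lipid and cholesterol genes had 4 of 36 (11.1%, 4.41 to 25.3%), with Hmgcs1 and Insig1 at the promoter and Pnpla3 at 11329 bp from the TSS. Another 17 of the 36, among them Fasn, Acly and Scd1, had regions, but none called in both replicates. Over all genes, 3355 had a peak in either replicate and 989 a region called in both. The share of all genes with regions called in 1 replicate only was not computed, so 17 of 36 has no background. For 4 of 36, the interval began close to the background of 4.1%. Stress, circadian and immediate-early genes had 13 of 41 (31.7%), with promoter regions at Atf3 and Ddit3, an intergenic region 4915 bp from Cry1 and a promoter region at Hlf.

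The bHLH genes themselves had 7 of 40 (17.5%, 8.75 to 32.0%). Mlxipl, the carbohydrate-responsive factor ChREBP, had 2 intronic regions, Arnt and Bhlhe40 had 1 over the TSS and Hes1 had 1 within the promoter. Tcf3, which encodes E2A, had 0 peaks in either replicate, as had its relatives Tcf4 and Tcf12. Id2, an inhibitor of E proteins, had 1 region 2442 bp from its TSS, and Id3 had 3 peaks in replicate 1 and 1 in replicate 2 that did not meet.

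None of 14 B cell genes, which include Pax5, Ebf1 and Rag1, had a region called in both replicates or in 1. In both replicates, T cell, Kupffer cell, endothelial and cholangiocyte markers had 0 of 12, 0 of 10, 0 of 8 and 0 of 6. Notch1, Id3 and Gata4 of the first 3 of these lists had regions, but none called in both replicates. Stellate cell markers had 1 of 8 with a region called in both, 88793 bp from Reln. With lists this short, 0 of 14 allows a share of up to 21.5% by the Wilson interval. The background of 4.1% of all protein-coding genes lay inside the interval of each of these cell marker lists. Their counts are therefore not set apart from the background. The lists were chosen with earlier results of these data known, so their counts are descriptions and were not tested.

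**Figure D2:**
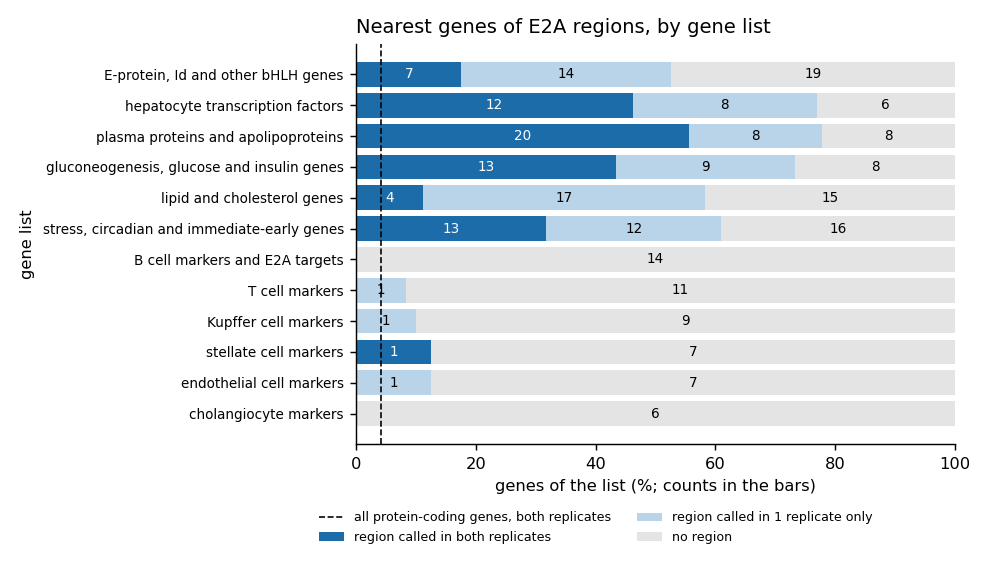
Share of the genes of each list (x axis, %, with counts in the bars) that were nearest to an E2A region called in both replicates, to regions called in 1 replicate only, or to none, with the 4.1% of all protein-coding genes as a dashed line. The plasma protein list has 20 of 36 genes with a region called in both, and the B cell list has 0 of 14 (interval up to 21.5%).

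Promoters held 490 of the 1117 regions (43.9%, 95% Wilson interval 41.0 to 46.8%), introns 263 (23.5%, 21.2 to 26.1%) and distal intergenic sequence 272 (24.4%, 21.9 to 27%). Exons had 38 regions, 3′ UTRs 25, the stretch downstream of genes 24 and 5′ UTRs 5. Against the regions called in 1 replicate, promoters were more frequent (43.9% against 37.5%, odds ratio 1.30, 95% interval 1.14 to 1.49, Fisher's exact test, two-sided, adjusted p = 0.00023). Introns were less frequent (23.5% against 30.3%, odds ratio 0.71, 0.608 to 0.829, adjusted exact p = 3.5e-05). Distal intergenic shares were 24.4% and 24.0% (odds ratio 1.02, 0.87 to 1.19, adjusted exact p = 0.842).

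These differences moved with width and with the replicate compared. Among regions between the quartiles of the widths of those called in both, the promoter odds ratio was 1.01 (adjusted exact p = 0.957) and the intron odds ratio 0.937 (adjusted exact p = 0.925). Against replicate 1 only, the promoter odds ratio was 1.16 (adjusted exact p = 0.0623), and against replicate 2 only it was 2.13 (adjusted exact p = 1.1e-13). Regions are not biological replicates, so these p-values describe the lists of 2 samples and not the variation between mice. Within introns, 124 of 263 regions (47.1%) lay in intron 1, against 47.3% for replicate 1 only and 45.5% for replicate 2 only. The gene whose intron held the region was not the nearest gene for 43 of 256 regions (16.8%).

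**Figure D3:**
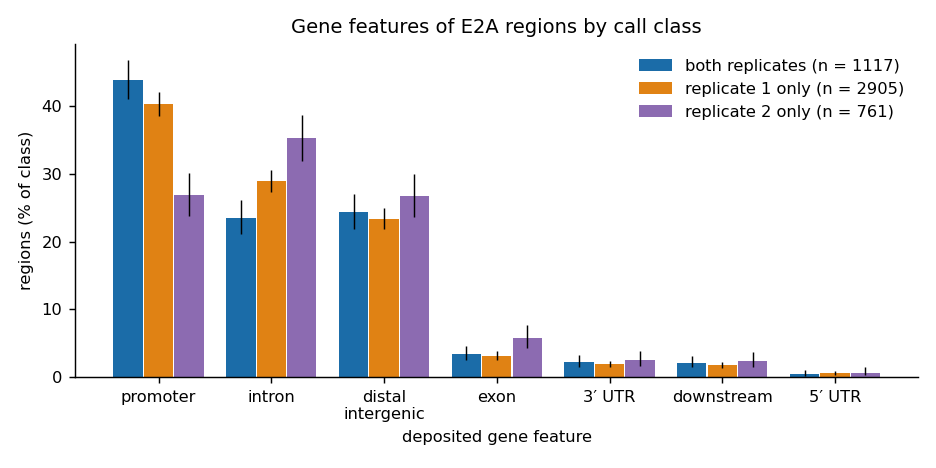
Share of E2A regions (y axis, % of each class) in each deposited gene feature, for regions called in both replicates, in replicate 1 only and in replicate 2 only, with 95% Wilson intervals as error bars. Promoters hold 43.9%, 40.3% and 26.8% of the 3 classes.

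The regions lay a median of 2376 bp from the TSS (95% interval of the median 1143 to 3331 bp), and 387 of them (34.6%) covered it. Within 1000 bp were 516 regions (46.2%) and within 10000 bp 740 (66.2%), whereas 54 (4.83%) were over 100000 bp away. For replicate 1 only and replicate 2 only, the medians were 3513 and 6628 bp and the shares that covered a TSS 26.7% and 15.6%. Leaving promoters aside brought the 3 classes together, with medians of 15329, 14466 and 13979 bp, and 261 of the 627 remaining regions called in both (41.6%) lay upstream of the gene. The classes also differed in width, and its part in the share that covers a TSS was not tested. Of the 490 promoter regions, 348 held the TSS of a protein-coding gene of GENCODE, and 40 (8.16%) held such sites on both strands. Among these were the promoters between the chaperonin genes Hspd1 and Hspe1 and between Hadha and Hadhb, which encode the mitochondrial trifunctional protein. These were picked after the values were seen.

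The regions farthest from a TSS were 2 at 1578424 and 1488144 bp from the non-coding gene Gm20268, 1 at 1390447 bp upstream of Slc10a2, the ileal bile acid transporter gene, 1 at 605792 bp from D830032E09Rik and 1 at 319443 bp upstream of Gm16551. The replicate peak centres of the 5 were between 1 and 109 bp apart.

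Some regions were broad. Of the 1117, 24 (2.15%) were wider than 2000 bp, at 22 genes. The widest was 10155 bp at Serpina3m, where a wide peak of replicate 2 met a peak of 365 bp in replicate 1. Next came Errfi1 with 8679 bp, Pck1, the rate-limiting enzyme of gluconeogenesis, with 8309 bp, Alb with 7638 bp and G6pc with 5205 bp. The merged region of Pck1 covered 100% of the gene, that of Alb 48.5% and that of G6pc, annotated to the 3′ UTR, 30.8%. The longest stretches shared by the replicate peaks were 5231 bp, 1636 bp and 703 bp. At G6pc the replicate 2 peak (chr11:101378804-101379506) lay past the deposited gene end (101377903), so only replicate 1 covered part of the gene. Other broad regions, named after their values were seen, were assigned to Apoa1, Tat, Cyp2e1 and Hamp. Their replicate peaks shared at most 1901, 412, 322 and 423 bp. At Alb the replicates differed in form, since 1 peak of replicate 1 met 4 separate peaks of replicate 2.

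Neighbouring regions on a chromosome were a median of 773133 bp apart. Of 1096 gaps, 21 were at most 1000 bp, 93 (8.49%) at most 10000 bp and 240 (21.9%) at most 100000 bp. Joining regions with gaps of at most 10 kb gave 76 clusters, which held 169 of the 1117 regions (15.1%). There were 63 clusters of 2 regions, 9 of 3 and 4 of 4, and 64 of the 76 had 1 nearest gene. A promoter region was part of 47 clusters (61.8%). With gaps of at most 5 kb the clusters held 10.6% of the regions, and with 25 kb 21.1%.

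Clusters of 4 regions lay at Malat1 and Neat1 (11637 bp from first to last base, with 3 of the regions in the Neat1 exon), at Slc25a25 (11514 bp) and at Herpud1 (20040 bp). Malat1 and Neat1 encode neighbouring nuclear long non-coding RNAs. The cluster with the largest covered length among those of 3 ran over Alb and a region assigned to Afp 12161 bp from its TSS, with 17237 of its 17899 bp inside regions and gaps of 281 and 381 bp. Other clusters of 3, outside the 5 largest and named after their values were seen, were at 1700045H11Rik and Errfi1, at Apoa5 and Zpr1, at Ahsg and Gm30505, at Slc25a47, Trib1, Kdm6b, Irf2bp2 and Tle3.

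Chromosome 11 held the most regions, 104, or 0.852 per Mb (exact Poisson 95% interval 0.696 to 1.03). It was followed by chromosome 19 with 0.602, chromosome 4 with 0.575 and chromosome 7 with 0.55 per Mb, and chromosome 3 had the lowest value of the autosomes with 0.344 (0.259 to 0.447). The interval of chromosome 11 overlapped that of chromosome 19 (0.424 to 0.83). Per 100 protein-coding genes, chromosome 11 had 6.35 regions and was close to the 5.35 of all autosomes, whereas chromosomes 2 and 7, with 3.74 and 3.95, were lowest among them. Across the 19 autosomes, regions per Mb and protein-coding genes per Mb had a Pearson correlation of 0.781 and a Spearman correlation of 0.826, given as a description.

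The X chromosome held 3 regions, or 0.0175 per Mb (0.00362 to 0.0513) and 0.316 per 100 protein-coding genes (0.0653 to 0.925). Each replicate alone was as sparse there, with 4 peaks in replicate 1 and 5 in replicate 2. The 3 regions were promoters of Eif2s3x and Pin4 and a region 49924 bp from Pou3f4, and the only region on Y was the promoter of Eif2s3y. Eif2s3x and Eif2s3y encode near-identical copies of a translation initiation factor subunit. The likeness of their promoters was not measured, and these 2 regions are given as uncertain.

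**Figure D4:**
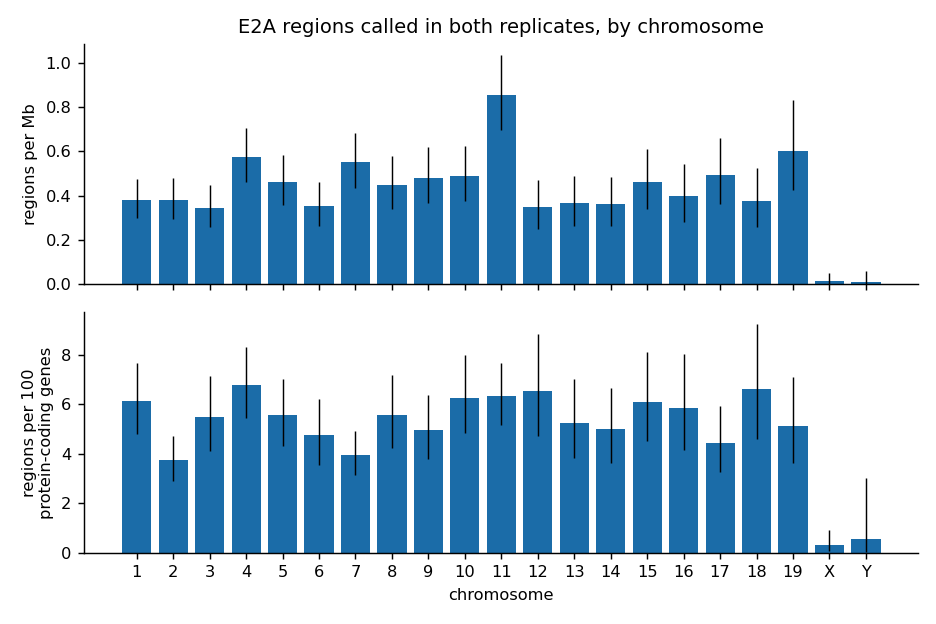
E2A regions called in both replicates per Mb (top) and per 100 protein-coding genes (bottom) on each chromosome, with exact Poisson 95% intervals. Chromosome 11 is highest per Mb at 0.852, lies among the other autosomes per gene, and X and Y are near 0 in both panels.

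Motifs were searched on both strands in the 200 bp at the centre of the 1093 regions of at most 2000 bp and of 3655 regions called in 1 replicate, and 15 motifs were tested together. The E-box CANNTG, the site of E2A, was present in 632 of 1093 windows (57.8%, 54.9 to 60.7%). Regions called in 1 replicate had 59.7% (odds ratio 0.924, 95% interval 0.806 to 1.06, Fisher's exact test, two-sided, adjusted p = 0.436), flanking windows, taken 500 bp beyond either edge, had 65.7% and 200 bp windows of RefSeq promoters (GRCm38.p6) had 58.2%. The share was 46.3% in promoter regions and 66.9% in the others, against 62.4% and 68.4% in their flanks, and promoter windows had 63.5% GC. Over all regions, the E-box share at the centres was thus no higher than in once-called regions, flanks or RefSeq promoters, and per 100 bp it stayed between 33.9% and 38.3% within 500 bp of the centre.

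The CRE was present in 56 of 1093 windows (5.12%, 3.97 to 6.59%), against 81 of 3655 called in 1 replicate (2.22%), with an odds ratio of 2.38 (1.68 to 3.37, adjusted exact p = 3.6e-05). Flanks had 0.189% and RefSeq promoters 1.47%. Of the 56, 39 were promoter regions, and the difference was present in promoter regions (odds ratio 2.07, adjusted exact p = 0.016) and in the others (2.58, adjusted exact p = 0.0284). It was also present between the quartiles of width, a comparison added after seeing the data (2.55, adjusted exact p = 0.00568). It moved with the replicate compared. Against replicate 1 only the odds ratio was 2.90 (adjusted exact p = 1.2e-06), and against replicate 2 only 1.40 (adjusted exact p = 0.433). Within 500 bp of the centres of regions called in both, 61 of 108 CRE matches (56.5%) lay in the central 200 bp, and the share was similar for regions called in 1 replicate (57.9%). Genes with a CRE in the window, chosen after their values were seen, were Ppp1r15a, a stress-induced phosphatase subunit, the growth-arrest gene Btg2, the phosphatase gene Dusp8, the transcription factor genes Klf11 and Hlf, and Acadm, which starts medium-chain fatty acid oxidation.

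The C/EBP motif TTGCNNAA was present in 18.4% of windows against 14.2% (odds ratio 1.36, 1.14 to 1.63, adjusted exact p = 0.00669). It was in 26.4% of regions outside promoters and 8.30% of promoter regions, against 8.24% and 8.65% in their flanks. Against replicate 2 only its odds ratio was 1.03 (adjusted exact p = 1). The core CACGTG was present in 7.59% against 5.06% (odds ratio 1.54, 1.18 to 2.02, adjusted exact p = 0.0106), in 3.22% of flanks and in 5.26% of RefSeq promoters, and 50 of the 83 regions with it were at promoters. Between the quartiles of width its odds ratio was 1.37 (adjusted exact p = 0.403). Within promoter regions it was 1.65 (adjusted exact p = 0.0666), in the others 1.31 (adjusted exact p = 0.555) and with 100 bp windows 1.29 (adjusted exact p = 0.44). CAGCTG was less frequent (9.42% against 12.4%, odds ratio 0.732, 0.584 to 0.917, adjusted exact p = 0.0236), and between the quartiles of width its odds ratio was 1.02 (adjusted exact p = 0.932). For CAGCTG, flanks had 10.3% and RefSeq promoters 10.9%. The remaining 10 motifs did not pass this test, which compares the call classes only. They include the E-box cores CAGGTG and CAGATG, the motifs of FOX, HNF4, HNF6, AP-1, NF-Y, ETS and SP/KLF factors and the half-site AGAACA of GR. Outside promoters, centres and flanks had 7.36% and 2.89% with FOX, and the same shares with HNF6. For HNF4 they were 1.80% and 0.170%, for AP-1 9.66% and 5.86% and for NF-Y 30.8% and 22.9%. ETS had 0.982% and 0.680%, SP/KLF 10.3% and 3.74%, CAGATG 14.7% and 16.1% and AGAACA 15.7% and 17.2%. In promoter regions HNF6 had 1.24% and 2.24% and AP-1 3.53% and 4.59%. Flank shares were not tested. CAGGTG was present in 13.4% against 13.3% (odds ratio 1.02, 0.833 to 1.24, adjusted exact p = 0.879), in 15.2% of flanks and in 13.9% of RefSeq promoters. A match is a stretch of letters and was not tested as a binding site.

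**Figure D5:**
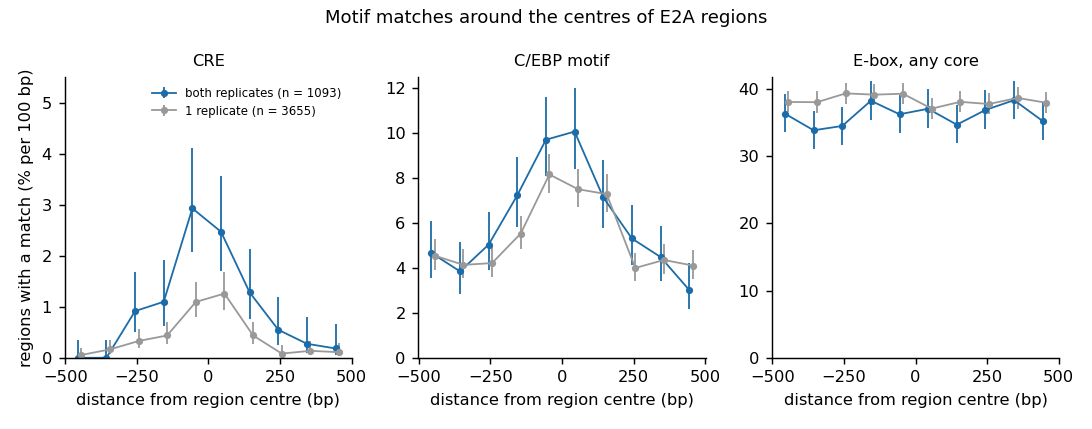
Share of E2A regions of at most 2000 bp with a match (y axis, % per 100 bp) by distance from the region centre in bp, for the CRE, the C/EBP motif and any E-box, in regions called in both replicates and in 1 replicate, with 95% Wilson intervals. CRE and C/EBP matches peak at the centre in both classes, whereas the E-box share is flat.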

How the data were processed

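E2A ChIP-Seq of 2 wild-type livers was analysed, and the GR samples were not used here. Per the authors' methods, BWA-MEM 0.7.13 was the aligner and mm10 the genome. By these methods, MACS2 peaks of each replicate rest on non-duplicate pairs of unique position, equal in number between the E2A libraries. The labels name other versions of Picard and MACS2 than the methods do. Deposited values comprise peak start, end and width and the distance to the TSS in bp, with gene and feature. Peaks sharing at least 1 bp were merged, and a region took the annotation of its replicate 1 peak. All 5920 peaks lay inside the chromosomes of GRCm38, and 5902 of 5917 deposited genes overlapped the RefSeq gene of the same ID.

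Fisher's exact tests (two-sided, 0.05) set regions called in both replicates against those called in 1, with Benjamini-Hochberg adjustment over 3 features or 15 motifs. Motif windows were limited to regions of at most 2000 bp. Genes were named by these rules: those with at least 3 regions, the 5 widest and 5 farthest regions, the 5 largest clusters and up to 4 genes per list. Other names, such as examples within a count, were chosen after their values were seen. Members and lists were chosen with earlier results of these data known. The code was tested on simulated data. Python 3.11.15, numpy 2.4.6, pandas 2.3.3, scipy 1.17.1, pysam 0.24.0, samtools 1.23.1, matplotlib 3.10.9 and GENCODE M21 were used. Alternatives changed the overlap rule, widths, replicates, annotation, gaps and windows. Some genes that met the naming rules are not reported here.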

Additional observations from a re-analysis of the deposited data

How the results depend on the processing

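Requiring an overlap of 50% of the shorter peak, centres within 250 bp, peaks of at most 2000 bp, the annotation of the replicate 2 peak, or autosomes only (added after seeing the data) left every result recomputed under them on its side of the threshold, with counts within 1.5 times of those reported. Without replicate 1 or without replicate 2, all peaks of the other replicate stood in for the regions, and the range was 1892 to 4028 regions, 37.1% to 41.2% promoter, 27.5% to 28.3% intron, 23.6% to 25.3% distal intergenic, medians of 2939.5 to 4098 bp to the TSS, 39.2% to 43.1% within 1000 bp, 1483 to 2987 genes, 76 to 206 genes with at least 3, 165 to 450 clusters with 25% to 26.7% of regions, median gaps of 127206 to 347919 bp, and 1.20 to 2.90 regions per Mb on chromosome 11. With GENCODE the median distance was 4752 bp, measured from the region centre, and 38.2% lay within 1000 bp. Gaps of 5 kb and 25 kb put 10.6% and 21.1% of regions in clusters.

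The promoter odds ratio was 1.16 against replicate 1 only and 1.01 between the quartiles of width, where that of introns was 0.937. Of 15 motifs, 4 passed, against 2 with replicate 2 only, 1 with 100 bp windows, 1 in promoters, 2 outside them and 2 between the quartiles of width, where, in a comparison chosen after seeing the data, CAGCTG turned to 1.02. Over the single motifs, 12 odds ratios besides that one lost their call under an alternative and 2 gained one. Both gains were of SP/KLF, against replicate 2 only (odds ratio 1.78, adjusted exact p = 4.0e-06) and with 400 bp windows (1.20, adjusted exact p = 0.031). Besides SP/KLF, only CACGTG passed against replicate 2 only (1.80, adjusted exact p = 0.0455), so the CRE, C/EBP and CAGCTG did not. The cause was not tested. The tests need regions called in 1 replicate and give no value when a replicate is left out. No paired analysis was possible because the comparison is between regions of 1 group. Peak lists without counts leave the read depth at each region unknown.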
